A study of Mus musculus with 9 samples.

Results

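Markers of the endothelium of the liver were read from expression arrays of mouse liver, in 10 genes of 20972 that the array could name. The members were Stab1, Stab2, Lyve1 and Clec4g, which mark the sinusoidal endothelium, Cd34, Plvap and Vwf, which mark capillary and large vessel endothelium, and Kdr, Pecam1 and Eng, which both kinds of endothelium share. A member's probes were those whose RefSeq accession leads to its gene symbol, which gave 13 of 55681 probes. Where a gene had several tested probes, the brightest was counted. Liver total RNA of 9 male mice aged 20 weeks was hybridised, 1 array per mouse, in 3 groups of 3. STAM (STelic Animal Model) mice are a non-obese diabetic model that goes through steatohepatitis and fibrosis to liver tumours, and the study's methods describe them as male C57B/6J mice given a low dose of streptozotocin under the skin soon after birth and a high-fat diet after weaning. Both STAM groups share this background, so that streptozotocin, a DNA-alkylating toxin of the insulin-secreting cells, and the diet cannot be told apart in any comparison with Normal. STAM-NON mice received no treatment. STAM-INS mice received insulin, which the methods name as insulin glargine injected under the skin twice-daily and raised by blood glucose. Normal mice were lean controls without streptozotocin or high-fat diet. Whether a piece of liver held tumour is not given in the sources used here.

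The blood of the liver runs through sinusoids, whose endothelium has open pores without a diaphragm, hardly any basement membrane, and scavenger receptors that clear waste from plasma. In chronic liver injury this endothelium is known to lose its pores and to gain features of ordinary capillaries, which is called capillarisation, and in liver tumours the vessels are known to take on capillary markers. The comparison of sinusoidal with capillary markers in these groups addresses that change. In RNA of whole liver, fewer cells of a type and less RNA per cell cannot be told apart.

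Values are centred log2 signals, which are the log2 of the background-subtracted spot intensity minus the array's own 75th percentile, so that 0 is the level of that percentile and a difference of 1 is 2-fold. Levels of different genes cannot be compared on this scale, since each probe has its own brightness. The share of spots well above background ranged from 47.8% to 63.1% on STAM-NON arrays, 47.8% to 65.0% on STAM-INS arrays and 46.2% to 51.1% on Normal arrays, and no spot was saturated. All 6 STAM arrays lay on 1 slide and all 3 Normal arrays on another, so that slide and group cannot be told apart in a comparison with Normal, while STAM-INS and STAM-NON shared a slide. The probe counted for each member was well above background on all 9 arrays, and the summed linear signal of 8 hepatocyte markers was 4190 to 6220 times the array's 75th percentile, so that the defining markers of liver were present. Differences are the first group minus the second, from a limma fit over 26289 tested probes, and a probe was called at a Benjamini-Hochberg adjusted p under 0.05.

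Promoter sequences were at hand for 6 of the 10 members (RefSeq, GRCm38.p6, 300 bases around each gene start), and 1 of each class is shown to let the classes be seen side by side. Capitals mark GGAA or its reverse complement TTCC, the core of sites bound by ETS factors, a family that includes the endothelial regulator Erg. Clec4g stands for the sinusoidal, Cd34 for the capillary and Kdr for the shared markers.
Clec4g promoter, chr8:3720602-3720901, minus strand: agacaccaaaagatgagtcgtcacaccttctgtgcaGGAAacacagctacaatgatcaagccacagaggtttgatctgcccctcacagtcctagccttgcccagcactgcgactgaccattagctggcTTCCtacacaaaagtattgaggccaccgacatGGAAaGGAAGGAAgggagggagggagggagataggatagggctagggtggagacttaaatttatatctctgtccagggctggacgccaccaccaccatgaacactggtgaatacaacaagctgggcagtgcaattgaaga
Cd34 promoter, chr1:194938571-194938870, plus strand: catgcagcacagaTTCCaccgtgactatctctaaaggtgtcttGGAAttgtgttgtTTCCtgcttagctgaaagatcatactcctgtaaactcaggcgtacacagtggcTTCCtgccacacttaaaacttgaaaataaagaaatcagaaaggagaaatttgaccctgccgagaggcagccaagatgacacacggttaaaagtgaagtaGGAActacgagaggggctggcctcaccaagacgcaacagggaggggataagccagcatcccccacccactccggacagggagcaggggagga
Kdr promoter, chr5:75978406-75978705, minus strand: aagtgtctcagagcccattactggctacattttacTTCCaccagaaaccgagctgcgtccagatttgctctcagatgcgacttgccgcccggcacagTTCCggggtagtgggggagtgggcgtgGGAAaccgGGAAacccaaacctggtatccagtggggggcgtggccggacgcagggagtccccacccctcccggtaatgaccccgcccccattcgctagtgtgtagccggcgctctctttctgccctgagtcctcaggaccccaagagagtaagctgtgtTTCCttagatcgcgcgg
The GGAA core occurred 6 times in Stab1 and Stab2, 5 times in Clec4g, Cd34 and Kdr, and 4 times in Eng, counted on both strands. It is a common run of letters, present in 96.0% of 32851 promoters of the same length with a median of 3 matches. AGATAA (bound by GATA factors) and TGANTCA (bound by AP-1) occurred in none of the 6, against 11.2% and 7.81% of all promoters. TATAAA occurred once, in Clec4g, against 13.6% of all promoters. These are matches of letters and not measured sites.

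STAM-NON was compared with Normal to see how the endothelial markers differ in the untreated disease model. Lyve1 among the sinusoidal markers and Plvap among the capillary markers were higher in STAM-NON, by 8.11-fold and 1.91-fold. These were 2 of 10 members past the threshold, both higher, and 15.6% of all probes were called in this comparison, 6.36% as higher and 9.2% as lower. The other 3 sinusoidal markers did not pass. The median difference over the 10 members was 0.38, beside -0.13 over all tested probes, and 5 of 10 members had an unadjusted p under 0.05, against 35.2% of all probes.

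Lyve1 encodes a hyaluronan receptor of sinusoidal and lymphatic endothelium, also carried by some macrophages. Its centred log2 signal was 2.0, -0.19 and 2.20 in STAM-NON mice, -0.27, 1.28 and 0.13 in STAM-INS mice, and -1.17, -2.18 and -1.70 in Normal mice. Every STAM array of either group lay above every Normal array, as did 13.4% of all probes in STAM-NON and 15.4% in STAM-INS. STAM-NON replicate 2 lay within the range of STAM-INS. STAM-NON averaged 1.34 ± 1.33 against -1.68 ± 0.50 for Normal (mean ± SD, 3 mice each), which gave a difference of 3.02 (SE 0.66, 95% interval 1.52 to 4.52, limma adjusted p 0.0243). The call was lost, with a limma adjusted p above 0.05, when STAM-NON replicate 1 (0.0721) or 3 (0.0663), or Normal replicate 1 (0.0562), 2 (0.0772) or 3 (0.0710) was left out.

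Stab1 and Stab2 encode stabilins, the large scavenger receptors by which sinusoidal endothelium takes up hyaluronan and modified proteins. Stab2 was at 3.77, 3.49 and 4.79 in STAM-NON mice, 3.22, 4.37 and 3.96 in STAM-INS mice, and 3.71, 3.93 and 4.15 in Normal mice. The Normal arrays lay within the range of both STAM groups. The difference between STAM-NON and Normal was 0.09 with a 95% interval of -0.78 to 0.96 (limma adjusted p 0.884). Stab1 was at 2.68, 2.65 and 3.23 in STAM-NON mice, 2.45, 2.81 and 2.77 in STAM-INS mice, and 2.85, 2.78 and 2.83 in Normal mice, again with overlap. Its difference was 0.03 with an interval of -0.37 to 0.44 (limma adjusted p 0.903).

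Clec4g encodes a C-type lectin of sinusoidal endothelium. It was at 4.44, 4.90 and 4.71 in STAM-NON mice, 3.96, 4.98 and 5.4 in STAM-INS mice, and 5.24, 5.24 and 5.34 in Normal mice. All 3 STAM-NON arrays lay below the Normal arrays, as did 27.4% of all probes, and the STAM-INS arrays spread across both. The difference was -0.59 (SE 0.32, 95% interval -1.33 to 0.15) and did not pass the threshold (limma adjusted p 0.224). Of the 4 sinusoidal markers, then, 1 was higher, none was lower and 3 did not pass, with a median difference of 0.06.

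**Figure D1:**
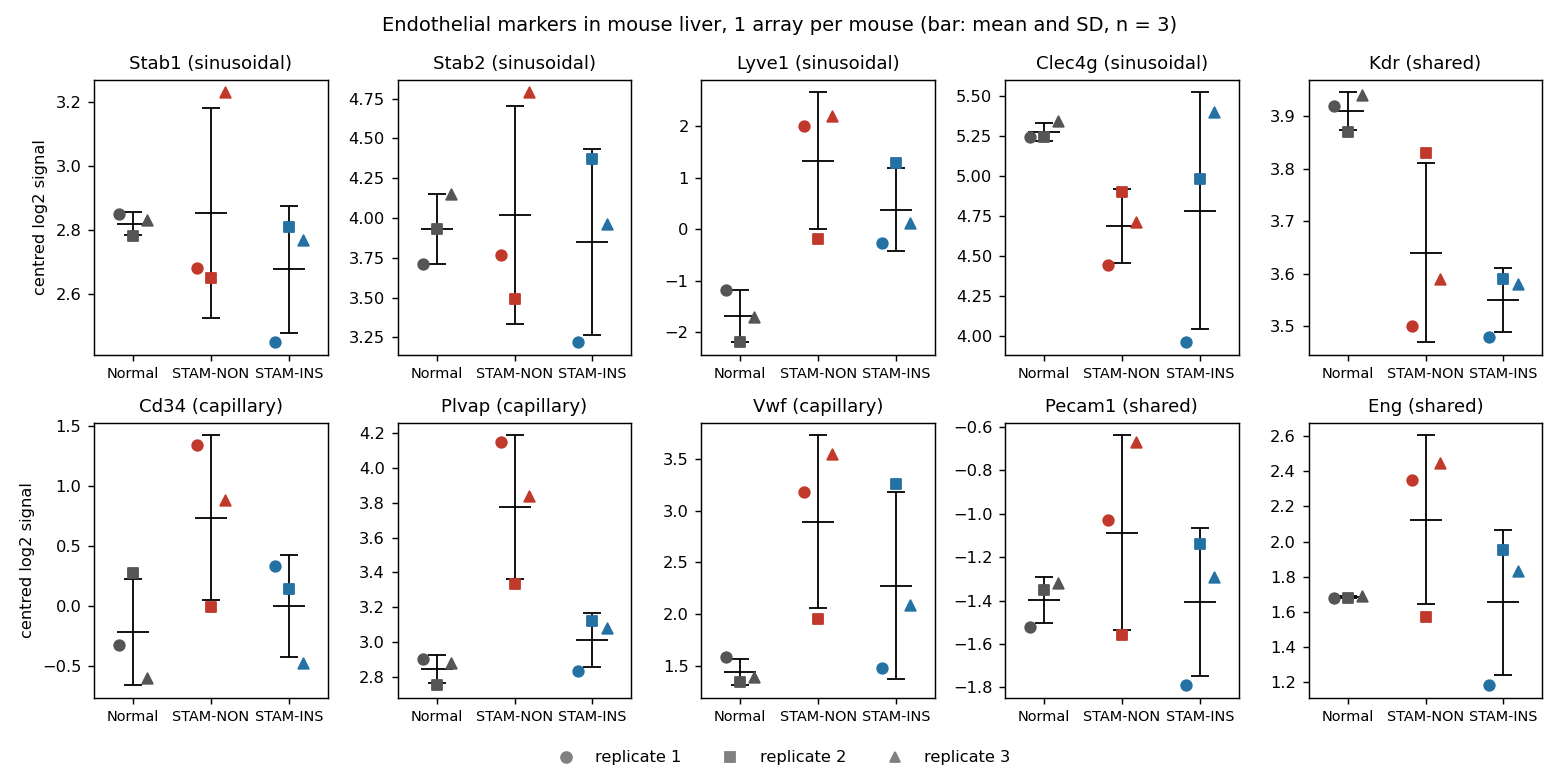
Centred log2 signal (vertical axis, own scale in each panel) of the 10 markers in each mouse, by group, with the mean and SD of 3 mice as bars and the replicate number as the shape of the point. Lyve1 and Plvap in STAM-NON lie above all Normal mice, while the Normal mice lie close together in most panels.

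Plvap encodes the protein of the diaphragms that span the pores of capillary endothelium, which adult sinusoids lack. It was at 4.15, 3.33 and 3.84 in STAM-NON mice, 2.83, 3.12 and 3.08 in STAM-INS mice, and 2.90, 2.75 and 2.88 in Normal mice. The 3 STAM-NON arrays lay above the other 6, and STAM-INS overlapped Normal, while 13.4% of all probes lay above Normal without overlap in STAM-NON. STAM-NON averaged 3.77 ± 0.41 against 2.84 ± 0.09 for Normal (mean ± SD, 3 mice each), which gave a difference of 0.93 (SE 0.20, 95% interval 0.47 to 1.39, limma adjusted p 0.0235). A second, dimmer Plvap probe read 1.36, 0.36 and 1.09 in STAM-NON mice, -0.11, 0.34 and 0.32 in STAM-INS mice, and 0.11, 0.16 and 0.33 in Normal mice. It did not overlap between STAM-NON and Normal either, with a difference of 0.74 that did not pass (limma adjusted p 0.0776). The call of the brighter probe was lost without STAM-NON replicate 1 (0.0554) or 3 (0.0617), or Normal replicate 1 (0.0647), 2 (0.0742) or 3 (0.0678), and with arrays centred on their median (difference 0.77, limma adjusted p 0.0599).

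Vwf encodes von Willebrand factor, the platelet-binding protein stored in endothelium of large vessels and in megakaryocytes. It was at 3.18, 1.95 and 3.55 in STAM-NON mice, 1.48, 3.26 and 2.09 in STAM-INS mice, and 1.58, 1.34 and 1.39 in Normal mice. All STAM-NON arrays lay above Normal, as did 13.4% of all probes, and STAM-INS reached from the Normal range to that of STAM-NON. The difference between STAM-NON and Normal was 1.45 (SE 0.50, 95% interval 0.31 to 2.60), or 2.74-fold, and did not pass (limma adjusted p 0.0807).

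Cd34 encodes a sialomucin of capillary endothelium and of haematopoietic progenitors. It was at 1.34, -0.01 and 0.88 in STAM-NON mice, 0.33, 0.14 and -0.48 in STAM-INS mice, and -0.33, 0.27 and -0.60 in Normal mice. STAM-NON replicates 1 and 3 lay above the other 7 arrays and replicate 2 within them. The difference was 0.96 (SE 0.38, 95% interval 0.09 to 1.82, limma adjusted p 0.112). A second Cd34 probe was well above background on 2 of 3 STAM-NON arrays and on 0 of the other 6, and was not tested. All 3 capillary markers thus differed from Normal in the same direction, with a median of 0.96, and 1 of them passed.

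Among the shared markers, Kdr encodes Vegfr2, the main signalling receptor for Vegfa. It was at 3.50, 3.83 and 3.59 in STAM-NON mice, 3.48, 3.59 and 3.58 in STAM-INS mice, and 3.92, 3.87 and 3.94 in Normal mice. Every STAM array lay below every Normal array, by little, as did 27.4% of all probes in STAM-NON and 28.4% in STAM-INS. The difference of -0.27 between STAM-NON and Normal did not pass (SE 0.12, limma adjusted p 0.136) and was 0.03 with spike-in centring. A second Kdr probe, printed on 10 spots, also lay below Normal on all STAM arrays, with a difference of -0.30 (limma adjusted p 0.475).

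Pecam1 encodes an adhesion molecule of endothelial junctions, also present on platelets. It was at -1.03, -1.56 and -0.67 in STAM-NON mice, -1.79, -1.14 and -1.29 in STAM-INS mice, and -1.52, -1.35 and -1.32 in Normal mice, with overlap of all groups. Its difference was 0.31 (95% interval -0.25 to 0.86, limma adjusted p 0.392). Eng encodes endoglin, a co-receptor for Bmp9 that rises on endothelium under active growth. It was at 2.35, 1.57 and 2.45 in STAM-NON mice, 1.18, 1.95 and 1.83 in STAM-INS mice, and 1.68, 1.68 and 1.69 in Normal mice. Both STAM groups spread to either side of the Normal arrays, and the difference of 0.44 did not pass (95% interval -0.17 to 1.05, limma adjusted p 0.263).

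The members varied more between mice within the STAM groups than in Normal, given here as a description. The median SD over the 10 members was 0.46 for STAM-NON, 0.42 for STAM-INS and 0.10 for Normal, beside 0.23, 0.18 and 0.16 over all tested probes. They also shared the order of mice. STAM-NON replicate 2 was the lowest of its group in 8 of 10 members, against 24.1% of all probes, and STAM-INS replicate 1 was the lowest of its group in 9 of 10, against 32.8%. STAM-INS replicate 2 was the highest of its group in 8 of 10, against 25.6% of all probes. STAM-NON replicate 2 had 47.8% of spots well above background, the lowest share of its group, and STAM-INS replicate 1 had 65.0%, the highest of all arrays. Without STAM-NON replicate 2, the members past the threshold between STAM-NON and Normal were Lyve1 (3.78), Plvap (1.15), Cd34 and Vwf, 4 of 10, while 5673 of 31151 probes were called. Without STAM-NON replicate 1 or 3, or any 1 Normal replicate, 0 of 10 members passed. Over all probes, calls then fell to 1453 of 26421 and 1828 of 26409 without STAM-NON replicates 1 and 3. They fell to 1118 of 26953, 1071 of 26463 and 937 of 26383 without Normal replicates 1, 2 and 3.

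STAM-INS was compared with STAM-NON, on the same slide, to see what insulin treatment changed. No member passed the threshold, where 0.0951% of all probes were called (0.0114% higher and 0.0837% lower), and 1 of 10 had an unadjusted p under 0.05 against 8.78% of all probes. This member was Plvap, and its arrays did not overlap between the groups, with STAM-INS below, as were 4.98% of all probes, while 7.16% lay above without overlap. Its difference was -0.77 (SE 0.20, 95% interval -1.22 to -0.31) with an unadjusted limma p of 0.00447 and an adjusted p of 0.397. The second Plvap probe gave -0.75 (limma adjusted p 0.491), also without overlap. In the row of the slide that held all STAM-NON arrays, the single STAM-INS array read 2.83 for Plvap, below the STAM-NON range of 3.33 to 4.15. This was STAM-INS replicate 1, the lowest of its group in 9 of 10 members, and STAM-INS replicates 2 and 3 lay in the other row.

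In the 9 members other than Clec4g, the mean was below that of STAM-NON, with a median difference of -0.40 over the 10 members beside 0.02 over all probes. The other capillary markers had differences of -0.74 in Cd34 (95% interval -1.60 to 0.12) and -0.61 in Vwf (-1.76 to 0.53). Lyve1 differed by -0.96 (-2.46 to 0.54, limma adjusted p 0.718) and Eng by -0.47 (-1.08 to 0.14). For Stab1 (-0.18, interval -0.58 to 0.22), Stab2 (-0.17, -1.03 to 0.70) and Clec4g (0.10, -0.64 to 0.84) the intervals lay on both sides of 0. The intervals of Cd34 and Vwf held both 0 and the full distance between STAM-NON and Normal, 0.96 and 1.45, and that of Lyve1 held 0 but not 3.02.

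STAM-INS was also compared with Normal, across the same slides as before and with the Normal arrays shared with the first comparison. No member passed, while 13.6% of all probes were called (5.19% higher and 8.45% lower). An unadjusted p under 0.05 was found in 2 of 10 members and in 32.2% of all probes. These were Lyve1, with a difference of 2.06 (95% interval 0.56 to 3.56, limma adjusted p 0.0699), and Kdr, with a difference of -0.36 (-0.62 to -0.09, limma adjusted p 0.0736), and neither overlapped with Normal, where 15.4% of all probes lay above and 28.4% below without overlap. Plvap differed by 0.16 (-0.29 to 0.62), Cd34 by 0.22 (-0.65 to 1.08) and Vwf by 0.84 (-0.31 to 1.99). The Normal arrays and 2 STAM-INS arrays had the same row number, but on different slides. With the slide row as a block, the differences were 2.39 for Lyve1 and -0.32 for Kdr, and slide and group still could not be told apart.

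**Figure D2:**
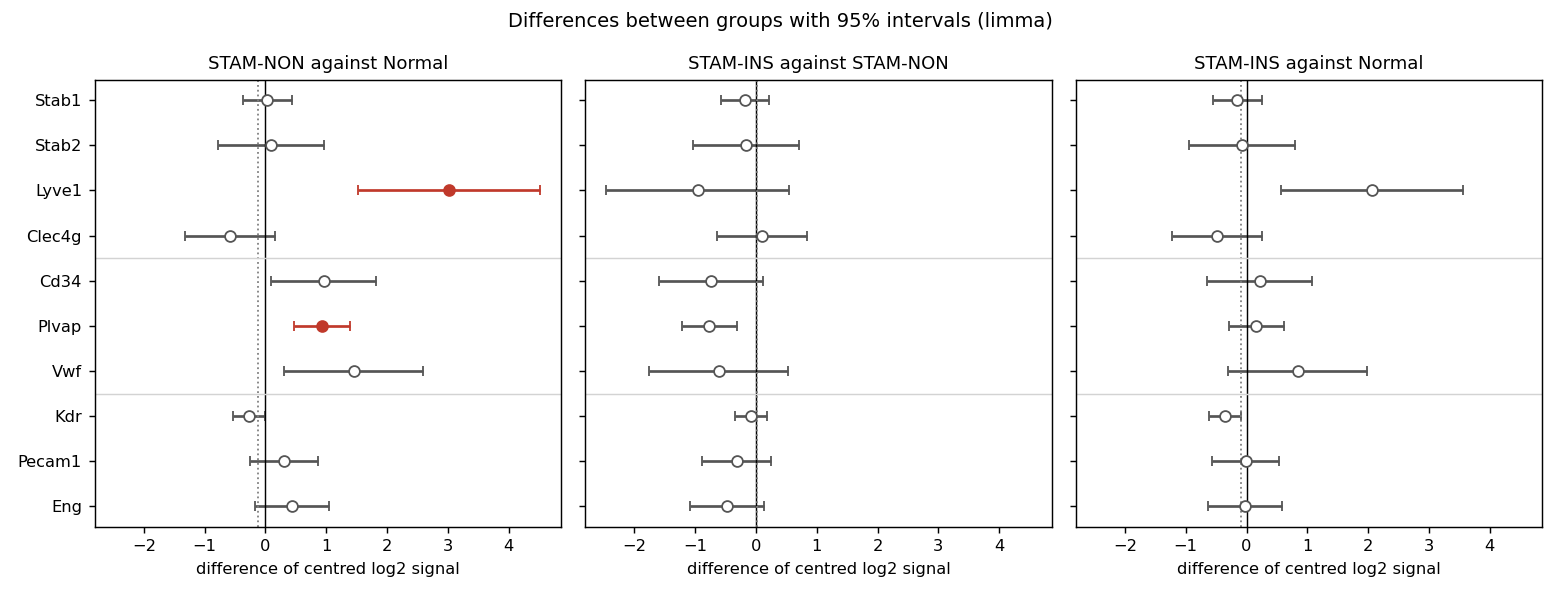
Difference of centred log2 signal (horizontal axis) for each marker in the 3 comparisons, with 95% intervals from limma, grouped as sinusoidal (top), capillary and shared markers. Filled red points are past the adjusted threshold, the dotted line is the median of all tested probes, and only Lyve1 and Plvap between STAM-NON and Normal are filled.

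To contrast the classes, each mouse's difference from the Normal mean was averaged over the sinusoidal and over the capillary markers. The sinusoidal mean was 0.64, 0.13 and 1.15 in STAM-NON and -0.24, 0.77 and 0.48 in STAM-INS. The capillary mean was 1.54, 0.40 and 1.40 in STAM-NON and 0.19, 0.82 and 0.21 in STAM-INS mice, and the Normal mice lay between -0.13 and 0.10. The capillary mean was thus above Normal in all 6 STAM mice, with the highest values in STAM-NON replicates 1 and 3. The shared markers gave 0.16 ± 0.26 in STAM-NON and -0.13 ± 0.27 in STAM-INS (SD, n = 3 each).

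The sinusoidal minus the capillary mean averaged -0.48 ± 0.37 for STAM-NON, -0.07 ± 0.36 for STAM-INS and 0 ± 0.22 for Normal (mean ± SD, 3 mice each). By mouse it was -0.90, -0.27 and -0.25 in STAM-NON mice, -0.44, -0.05 and 0.27 in STAM-INS mice, and 0.04, -0.24 and 0.20 in Normal mice. STAM-NON lay below Normal by a narrow gap and STAM-INS overlapped with both. Between STAM-NON and Normal the sinusoidal mean held a difference of 3.02 in Lyve1 and differences of -0.59 to 0.09 in its other 3 genes. With Lyve1 left out, a choice made after seeing the data, the difference of the contrast was -1.27 between STAM-NON and Normal, 0.62 between STAM-INS and STAM-NON and -0.65 between STAM-INS and Normal. With the slide row as a block, also added after seeing the data, these were 0.08, 0.04 and 0.11, so that the direction turned in both comparisons with Normal.

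**Figure D3:**
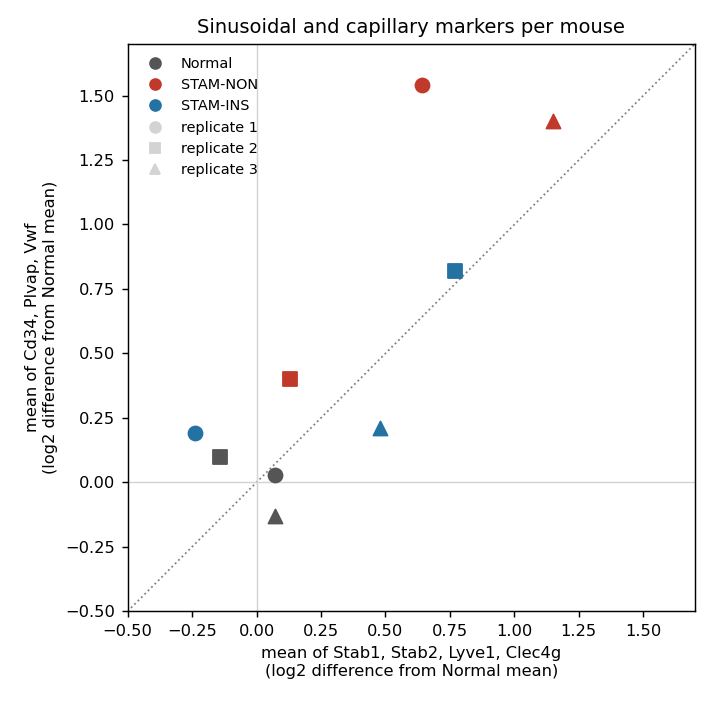
Mean log2 difference from the Normal mean over the 3 capillary markers (vertical axis) against that over the 4 sinusoidal markers (horizontal axis), 1 point per mouse, with equal values on the dotted line. All 3 STAM-NON mice lie above the line, by 0.25 to 0.90.

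Genes whose profile over the 9 arrays was nearest to these class means were looked for among 12828 other genes, by the mean absolute difference. Nearest to the sinusoidal mean were Rgl1 (0.08), Arrb1 (0.09) and C1qtnf1 (0.11). Nearest to the capillary mean were Sparc (0.11), which encodes a matrix protein, Col4a2 (0.12), a chain of basement membrane collagen, and Septin8 (0.12).

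Further genes of sinusoidal endothelium, which include scavenger and Fc receptors, the transcription factor Gata4 and the secreted signals Wnt2, Wnt9b, Rspo3 and Bmp2, gave 0 higher and 2 lower of 15 between STAM-NON and Normal, with a median of 0.03. The lower ones were Ehd3 and Bmp2, while 6.36% of all probes were called as higher and 9.2% as lower in this comparison. Ehd3, an endocytic recycling protein, was at 3.06, 2.76 and 3.07 in STAM-NON mice, 2.18, 2.56 and 3.18 in STAM-INS mice, and 3.77, 3.81 and 4.01 in Normal mice. All STAM arrays lay below Normal, with a difference of -0.90 for STAM-NON (limma adjusted p 0.0389) and -1.23 for STAM-INS (limma adjusted p 0.0162). Without overlap, 27.4% of all probes lay below Normal in STAM-NON and 28.4% in STAM-INS. Bmp2, by which sinusoidal endothelium signals to hepatocytes to make hepcidin, was at 1.42, 1.42 and 0.95 in STAM-NON mice, 0.62, 0.79 and 1.62 in STAM-INS mice, and 2.39, 2.11 and 2.28 in Normal mice. It too was below Normal on all STAM arrays, by -0.99 (limma adjusted p 0.0393) and -1.25 (limma adjusted p 0.0206). Both calls between STAM-NON and Normal were lost under 3 other scalings, the percentile over probes detected on all arrays, quantile normalisation and spike-in centring, where 0 of 15 passed as lower. Over 21 alternatives, settings and arrays left out together, the call was lost in 12 for Ehd3 and 13 for Bmp2, among them all 3 Normal and all 3 STAM-NON arrays left out in turn.

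Of 16 genes that all endothelium shares, such as Cdh5, Tie1, Tek and Erg, 0 passed between STAM-NON and Normal, against 15.6% of all probes, with a median of 0.32. The largest differences among them were 0.80 in Clec14a and 0.63 in Icam2. Their summed signal, in multiples of each array's 75th percentile, was 67.6 to 123 for STAM-NON, 52.5 to 90.8 for STAM-INS and 67.9 to 70.6 for Normal, so that the STAM groups reached to either side of Normal.

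Of 14 tested genes of capillary, large vessel and activated endothelium, out of 19 on the list, 7 were higher and 0 lower in STAM-NON, with a median of 1.06. These 7 were read in RNA of whole liver, and which cells gave their signal was not tested. Over all probes, 6.36% were called as higher and 9.2% as lower. Ackr1, the chemokine-binding receptor of venular endothelium, was at -0.78, -1.77 and -1.18 in STAM-NON mice, -1.61, -1.52 and -1.95 in STAM-INS mice, and -2.69, -2.47 and -2.51 in Normal mice. Every STAM array lay above Normal (STAM-NON difference 1.31, SE 0.24, limma adjusted p 0.0160), as did 13.4% of all probes in STAM-NON and 15.4% in STAM-INS. Icam1, the leukocyte adhesion molecule, differed by 0.96 (limma adjusted p 0.0275) and Fabp4, a fatty acid carrier of capillary endothelium that fat cells and macrophages also make, by 2.85 (limma adjusted p 0.0345). The other 4 were Vcam1 (1.44), Col4a2 (1.16), Ly6a (1.16) and Esm1, named after their values were seen. Esm1 encodes endocan, a product of endothelial tip cells, and was at 3.04, -1.12 and 1.60 in STAM-NON mice, 0.78, -0.44 and -1.22 in STAM-INS mice, and -2.24, -2.82 and -2.33 in Normal mice. All STAM arrays lay above Normal, against the same 13.4% and 15.4% of all probes, over a wide range (STAM-NON difference 3.63, SE 0.94, limma adjusted p 0.0382). The difference was 2.70 without STAM-NON replicate 1 (0.0891) and 4.78 without STAM-NON replicate 2 (0.00852), and the call was lost in 10 of 21 alternatives, among them each Normal array left out in turn. It was lost in 4 for Ackr1, 8 for Icam1, 9 for Fabp4, 11 for Vcam1, 14 for Col4a2 and 15 for Ly6a. Against Normal, 2 of the 14 were higher in STAM-INS, Icam1 and Ackr1 (calls lost in 6 and 15 of 21), where 5.19% of all probes were called as higher. Between STAM-INS and STAM-NON 0 passed, with a median of -0.48, where 0.0951% of all probes were called. The count of 7 fell to 1 without STAM-NON replicate 1, 2 without STAM-NON replicate 3, 1 without Normal replicate 1 or 2 and 0 without Normal replicate 3, to 4 without STAM-INS replicate 1 or 2 and to 2 without STAM-INS replicate 3. Over all probes, calls as higher fell too, from 1672 of 26289. They were 718 and 855 without STAM-NON replicates 1 and 3, and 498, 528 and 485 without Normal replicates 1, 2 and 3. Without STAM-INS replicates 1, 2 and 3 they were 1435, 1369 and 1269.

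Among ligands and receptors of the VEGF and angiopoietin families, 3 of 10 were higher and 1 lower in STAM-NON than in Normal, with a median of 0.42. All probes together gave 6.36% as higher and 9.2% as lower. Angpt1, the ligand that steadies vessels through the receptor Tek, was at -2.53, -2.25 and -2.26 in STAM-NON mice, -3.19, -3.98 and -3.31 in STAM-INS mice, and -3.66, -3.90 and -3.87 in Normal mice, where 1 of 3 arrays was well above background. STAM-NON lay above both other groups, which overlapped, while 13.4% of all probes lay above Normal without overlap. The probe was well above background on 3 of 3 STAM-NON and 2 of 3 STAM-INS arrays. It passed the filter through STAM-NON alone, the group where it was highest, so its p-values lend no support of their own. The difference from Normal was 1.46 (SE 0.21, limma adjusted p 0.00869), and that of STAM-INS from STAM-NON was -1.14 (SE 0.21, unadjusted limma p 0.000484, adjusted p 0.221). Angpt2, its antagonist in growing vessels and named after its values were seen, was at -0.20, -2.13 and -0.06 in STAM-NON mice, -2.09, -2.29 and -2.22 in STAM-INS mice, and -1.71, -2.49 and -2.56 in Normal mice. STAM-NON replicates 1 and 3 stood above the other 7 arrays, and the difference from Normal of 1.46 did not pass (limma adjusted p 0.0820).

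The co-receptors went apart. Nrp2, which binds Vegfc, was higher by 1.09 (limma adjusted p 0.0126), and Nrp1, which binds Vegfa, was lower by -1.01 (limma adjusted p 0.0296). Vegfc was the other gene that was higher (0.87, limma adjusted p 0.0435). Vegfa, the ligand of Kdr, was at 2.71, 3.0 and 3.42 in STAM-NON and between 3.14 and 3.29 in Normal, with overlap. The calls against Normal were lost in 2 of 21 alternatives for Nrp2, 8 for Nrp1 and 14 for Vegfc. No gene of these families passed between STAM-INS and STAM-NON, where 0.0951% of all probes were called.

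In the pathway of endoglin, where Bmp9 binds the receptor Alk1 with endoglin and signals through Smad proteins to the Id genes, 1 of 12 tested genes was higher and 1 lower between STAM-NON and Normal, with a median of -0.06. The shares over all probes were 6.36% higher and 9.2% lower. Acvrl1, which encodes Alk1, was higher by 0.58 (limma adjusted p 0.0220), at 0.61, 0.44 and 0.66 in STAM-NON mice, 0.66, 0.59 and 0.62 in STAM-INS mice, and -0.13, -0.08 and 0.19 in Normal mice. Smad9 was lower by -1.41 (limma adjusted p 0.0170), at -0.90, -1.23 and -1.60 in STAM-NON mice, -1.25, -2.15 and -1.57 in STAM-INS mice, and 0.22, -0.12 and 0.41 in Normal mice. In both genes the STAM groups did not overlap with Normal and overlapped with each other, and the call was lost in 8 of 21 alternatives for Acvrl1 and 5 for Smad9. Without overlap, 13.4% of all probes lay above and 27.4% below Normal in STAM-NON, and 15.4% and 28.4% in STAM-INS. Of 8 tested genes of Notch signalling and the response to shear stress, 0 passed, with a median of 0.43 and the largest differences in Hey1 (0.91) and Dll4 (0.78).

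**Figure D4:**
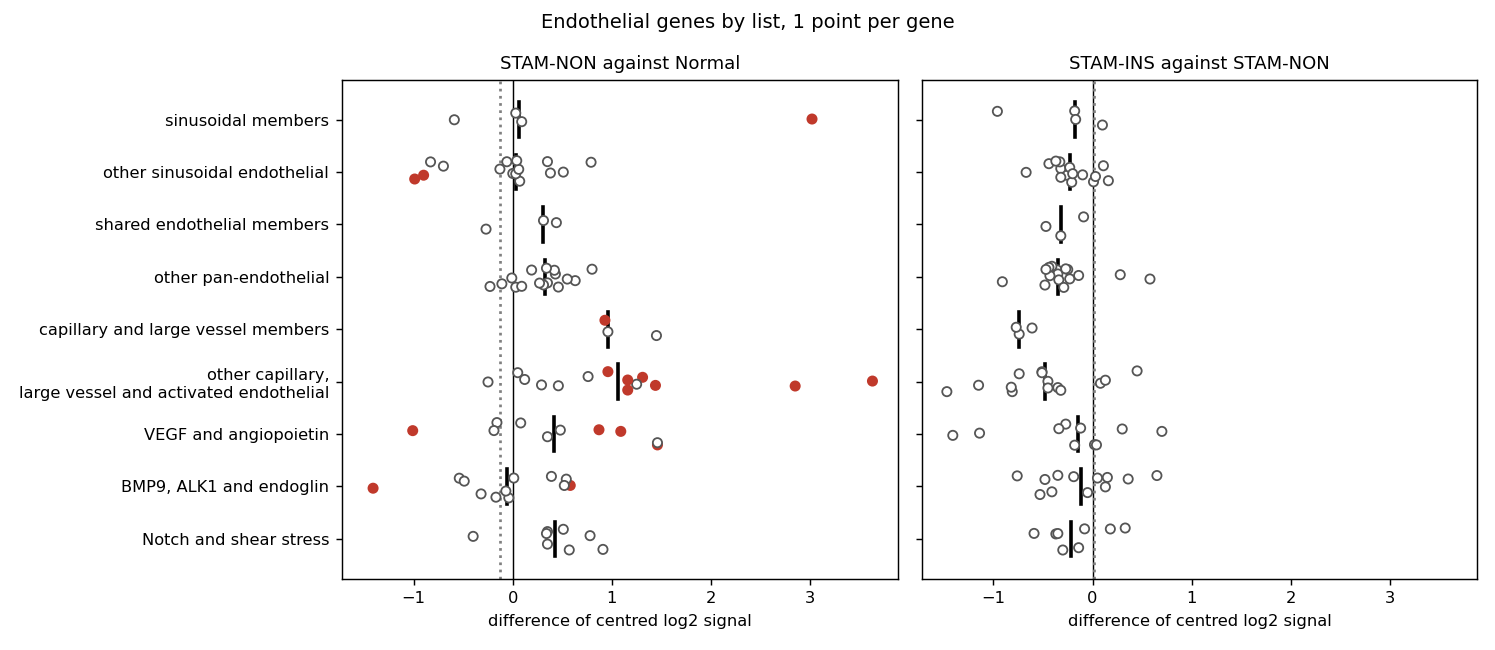
Difference of centred log2 signal (horizontal axis) of each tested gene by list, for STAM-NON against Normal (left) and STAM-INS against STAM-NON (right), with filled red points past the adjusted threshold, bars at the list medians and the dotted line at the median of all probes. Filled points lie to the right in the capillary lists on the left side. There is none on the right side, where 0.0951% of all probes were called.

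Markers of other cell types that carry some of these genes were read beside them. Lyve1 is shared with lymphatic endothelium, of whose 4 markers on the array 0 passed, with differences between -1.01 (Mmrn1) and 0.81 (Pdpn) and a summed signal of 1.51 to 1.76 in STAM-NON and 1.20 to 1.63 in Normal. Prox1, at 0.16 in STAM-NON and -0.01 in Normal, made up most of this sum, while Mmrn1, Pdpn and Reln averaged -3.59 to -2.36 in these groups. Mmrn1 was well above background on 2 of 3 STAM-NON arrays and at -6.26 in replicate 1, so these markers tell little about the part of lymphatic endothelium. Lyve1 is also shared with macrophages. Of their 8 tested markers, against 6.36% of all probes called as higher, 2 were higher in STAM-NON, Cd5l (1.34, limma adjusted p 0.0296) and Clec4f (0.98, limma adjusted p 0.0414), and 0 lower. These calls were lost in 8 and 10 of 21 alternatives. The summed signal of these 8 was 197 to 345 for STAM-NON, 161 to 390 for STAM-INS and 95.9 to 146 for Normal, above all Normal arrays in the 6 STAM arrays, and their part in the Lyve1 result was not tested.

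Vwf and Pecam1 are shared with platelets and megakaryocytes, of whose 5 tested markers 1 was higher, Pf4 (2.26, limma adjusted p 0.0361, call lost in 10 of 21 alternatives). Between STAM-NON and Normal, 6.36% of all probes were called as higher. In Gp9 and Ppbp no Normal array was well above background, and neither passed (limma adjusted p 0.0982 and 0.132). The difference in Ppbp was at least 4.29-fold. Gp9 was well above background on 2 of 3 STAM-NON arrays, so no bound is given for it. The summed signal of the 5 markers was 1.51 to 8.86 for STAM-NON, 2.03 to 5.44 for STAM-INS and 0.804 to 1.08 for Normal. Cd34 is shared with haematopoietic progenitors, of whose 4 markers 0 passed. Mpo was well above background on 0 of 3 Normal and 2 of 3 STAM-NON arrays, so no bound is given for its difference, which did not pass (limma adjusted p 0.176). The part of these cells in the values of Vwf, Pecam1 and Cd34 was not tested.

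Among the other cells of the liver, stellate cell markers gave 0 of 7 past the threshold between STAM-NON and Normal (median 0.53, Rgs5 1.27 and Pdgfrb 1.0 the largest, summed signal 19.6 to 34.2 against 16.9 to 19.4). Fibroblast and mesothelial markers gave 1 higher of 5 tested (Gas6, 1.20, limma adjusted p 0.0361, summed signal 38.7 to 51.8 against 18.7 to 22.5). Gas6, at 5.43 in STAM-NON and 4.23 in Normal, made up most of this sum, while Thy1, Dpt, Msln and Pi16 averaged 0.42 or less. Cholangiocyte markers gave 2 higher of 4 tested, Sox9 (0.97, limma adjusted p 0.0176) and Krt7 (1.56, limma adjusted p 0.0347), with a summed signal of 1.18 to 1.91 against 0.678 to 1.33. Krt7 was well above background on 1 of 3 Normal arrays and passed the filter through the STAM groups alone. Hepatocyte markers gave 1 lower of 8 (Cps1, -0.66, limma adjusted p 0.0314, summed signal 4190 to 5270 against 5820 to 6220). Of 3 tested lymphocyte markers and 1 erythroid marker, Alas2 (-1.67), 0 passed. Beside these lists, 6.36% of all probes were called as higher and 9.2% as lower. The calls were lost in 11 of 21 alternatives for Gas6, 4 for Sox9 and 12 for Cps1, and in 10 of 20 for Krt7. Between STAM-INS and STAM-NON, 0 genes passed in each of these lists, where 0.0951% of all probes were called. The part of the mix of cells in the endothelial values was not tested.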

How the data were processed

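Liver RNA of 3 STAM-NON, 3 STAM-INS and 3 Normal mice was measured on 1-colour Agilent mouse arrays. The authors deposited scanner output of Agilent Feature Extraction 11.5.1.1 (version per the labels): linear spot intensity after background subtraction, with quality flags and no normalisation between arrays. The study names no test for the arrays. Here the log2 of this intensity, which the authors deposited on a linear scale, was centred on each array's 75th percentile over non-control spots without outlier flags (161 to 217 flagged spots per array), and spots of a probe were averaged. Probes with a share of at least 0.5 of spots well above background on all arrays of 1 or more groups were tested (26289). limma 3.58.1 in R 4.3.3 (lmFit, eBayes, two-sided) was fitted to all 9 arrays without covariates, with 6 residual degrees of freedom, and adjusted by Benjamini-Hochberg over all tested probes at 0.05. Array number, not counting depth, limits precision. The fit was tested on simulated data.

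Probes were named through RefSeq accessions (table of GRCm38.p6, 27656 of 55681 probes named), while the array was designed on mm9, so no probe coordinates are given. A gene was counted by its brightest tested probe. The members and the 19 lists of genes were chosen with earlier results of these data known. From each list the text names up to 3 called genes without overlap between STAM-NON and Normal, by adjusted p, or else the 2 largest differences, and exceptions are stated. The labels do not say that replicate numbers pair the mice, and the main fit did not use them as pairs.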

Additional observations from a re-analysis of the deposited data

How the results depend on the processing

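The groups hold 3 mice each, all Normal arrays lie on a slide of their own, and the spread within the STAM groups limits the precision. Alternatives covered array scaling, background correction, the filter on dim probes, the variance model, the samples fitted, the slide row, a block by replicate number, the probe per gene, and each array left out. The planned background correction on mean signals was not run, since the files used here hold no mean spot signal, and median signals were used in its place, a choice made after seeing the data.

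Between STAM-NON and Normal, the count of 2 members past the threshold became 1 with median centring (Lyve1) and 0 with no filter on dim probes or with the slide row as a block, and lay between 0 and 4 with 1 array left out. Lyve1 kept its direction in all 21 alternatives (2.38 to 3.99, limma adjusted p 0.00765 to 0.211) and Plvap in all 21 (0.74 to 1.24, 0.00858 to 0.213), and each lost its call in 8. With the slide row as a block, where row and these groups are separated through the STAM-INS arrays alone, Lyve1 was at 3.99 (0.211) and Plvap at 1.20 (0.213). Between STAM-INS and Normal, the count of 0 became 1 after normexp and 1 with a trended, robust variance (Kdr in each), 2 with the 2 groups alone (Lyve1 and Kdr), and 0 to 1 with 1 array left out (Lyve1, without STAM-NON replicate 2). Between STAM-INS and STAM-NON it stayed at 0 in each alternative run, where 6 to 105 of all tested probes were called.

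With the replicate number as a block, 1 member (Plvap, limma adjusted p 0.0496) passed between STAM-NON and Normal and Lyve1 did not (0.0532), while 1962 probes were called in place of 4090. Same-numbered mice correlated in their deviations from the group means with r from -0.29 to 0.15, so the numbers do not pair mice.

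The contrast of sinusoidal minus capillary markers moved beyond the spread between mice without Lyve1, to -1.27 (STAM-NON) and -0.65 (STAM-INS) against Normal, and with the slide row as a block, to 0.08 between STAM-NON and Normal and 0.04 between STAM-INS and STAM-NON, both added after seeing the data. With 1 array left out it lay between -0.60 and -0.26 between STAM-NON and Normal, 0.19 and 0.59 between STAM-INS and STAM-NON, and -0.24 and 0.11 between STAM-INS and Normal.

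Reversals concerned differences that were not called. For STAM-INS against Normal they were Stab2 (0.05), Pecam1 (0.11) and Eng (0.10) with the percentile over detected probes, Stab2 (0.07) and Eng (0.05) with quantile normalisation, Plvap (-0.01) with median centring, Stab1 (0.01), Stab2 (0.08), Pecam1 (0.14) and Eng (0.13) with spike-in centring, and Stab2 (0.24), Pecam1 (0.18) and Eng (0.21) with the slide row. Between STAM-NON and Normal they were Stab1 (-0.12) and Stab2 (-0.07) with median centring, Kdr (0.03) with spike-in centring, and Clec4g (0.64), Pdpn (-0.02) and Flt3 (-0.65) with the slide row. Between STAM-INS and STAM-NON they were Clec4g with spike-in centring (-0.05) and the slide row (-0.72). With 1 array left out, ranges crossed 0 between STAM-NON and Normal in Stab1 (-0.15 to 0.14), Stab2 (-0.30 to 0.35) and Mmrn1 (-1.85 to 0.33), between STAM-INS and STAM-NON in Stab1 (-0.28 to 0.01), Stab2 (-0.43 to 0.22), Clec4g (-0.21 to 0.51) and Kdr (-0.16 to 0.01), and for STAM-INS against Normal in Stab2 (-0.34 to 0.24), Pecam1 (-0.15 to 0.18) and Eng (-0.18 to 0.21). The causes were not tested. The other named calls kept their direction in each alternative run, and each was lost in 2 to 15 of them, including without the filter on dim probes. Between STAM-NON and Normal, each was also lost with the slide row as a block.

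Among all probes, the calls between STAM-NON and Normal numbered 242 without the filter, 15 with the slide row as a block and 937 to 5673 with 1 array left out. Their split of 1672 higher and 2418 lower became 2738 and 458 after centring on spike-ins, 2156 and 955 with detected probes alone in the percentile, 1539 and 1426 after quantile normalisation, and 1329 and 3102 after normexp. The median of all probes was 0.18, 0.04, -0.04 and -0.11 there, and -0.29 with median centring. Of the 14 other capillary genes, 0 to 8 were called as higher over the alternatives and 0 as lower.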
